A study of Mus musculus with 10 samples.

Results

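N6-methyladenosine (m6A) peaks that stood at the ends of genes and occurred in mouse embryonic stem cells both without and with METTL3 are described here. A peak of the Mettl3 wild-type list was taken if it shared at least 1 bp with a peak of the Mettl3 knockout list and if its midpoint lay inside the span of a protein-coding or long non-coding RNA gene, at most 200 bp from either end of that span. The rule selected 303 peaks, out of 1372 wild-type peaks in gene spans that overlapped a knockout peak, 11788 wild-type peaks in gene spans and 12368 wild-type peaks in all. The members were thus chosen by the measured positions of the peaks in both m6A lists and by their distance from the gene end, so the overlap of the lists, the widths of the peaks and their closeness to an end are given as descriptions. Of the wild-type peaks in gene spans, 11.6% overlapped a knockout peak and 4.56% lay within 200 bp of an end, and nothing is read from these shares because they belong to the rule.

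The cells were male mouse embryonic stem cells of 129 background, which stand for the pluripotent cells of the early embryo in culture, grown without feeders in serum and LIF. The m6A samples were 2 precipitates with 2 inputs from Mettl3 knockout cells and 2 precipitates with 2 inputs from Mettl3 wild-type cells, all of polyadenylated RNA. A further precipitate with 1 input came from total RNA of cells whose Ythdc1 gene carries a knocked-in Halo tag, through which the YTHDC1 protein and its RNA were captured (RNA immunoprecipitation, RIP). The labels do not say whether the knockout samples are 1 clone or several. In the knockout samples the label for cell type says wild type; they were grouped by title. The wild-type list is also named in the label of 1 of the 2 knockout precipitates, so which precipitates fed which list cannot be settled from the labels. Each list is 1 set of positions with no height, strand, read count or value per replicate, and the read depth behind it is unknown. No difference below can be set against a spread between replicates, and every interval covers counting error only. The lists held no m6A peak in Mettl3, which says nothing about its RNA and leaves the genotype unchecked. They carry no expression either, so the cell type could be looked at only through the presence of peaks. Of 9 embryonic stem cell markers, 7 held a knockout m6A peak and 7 a wild-type one, against 1 and 1 of 6 fibroblast feeder markers.

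METTL3 is the catalytic subunit of the enzyme that places m6A on messenger RNA, mostly in long internal exons and around stop codons, in a short sequence context with the core GGAC. YTHDC1 is the nuclear protein that reads this mark. The first transcribed base of a messenger RNA, next to the cap, can carry a related modification, m6Am, when that base is an adenosine. m6Am is written by another enzyme, PCIF1, and antibodies raised against m6A also bind it. This is background, and the part of m6Am in the peaks described here was not tested.

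The start regions of 8 member genes are shown first, because nearly all members with a known strand lay at the start of their gene. They are the 8 with the widest wild-type peaks among the members named in the text that lay at the start and whose start the promoter table holds. Each runs 5′ to 3′ along the gene from 100 bases before the annotated start (lower case) through the 30 bases from the start on (capitals), as RefSeq gives it for GRCm38.p6.
Naa80, chr9:107580569-107580698, plus strand: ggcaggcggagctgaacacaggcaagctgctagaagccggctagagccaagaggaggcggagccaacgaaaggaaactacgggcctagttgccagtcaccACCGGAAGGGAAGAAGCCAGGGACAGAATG
Fancl, chr11:26386984-26387113, plus strand: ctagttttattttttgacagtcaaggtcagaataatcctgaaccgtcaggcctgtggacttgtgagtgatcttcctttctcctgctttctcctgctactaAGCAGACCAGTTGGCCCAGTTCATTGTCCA
Atg14, chr14:47568405-47568534, minus strand: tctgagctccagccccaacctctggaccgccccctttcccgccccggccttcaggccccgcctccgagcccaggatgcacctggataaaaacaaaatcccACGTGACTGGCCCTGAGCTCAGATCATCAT
Pcbp1, chr6:86526160-86526289, minus strand: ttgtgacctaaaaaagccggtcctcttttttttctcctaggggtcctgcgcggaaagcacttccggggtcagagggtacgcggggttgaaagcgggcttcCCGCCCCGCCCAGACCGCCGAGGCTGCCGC
Hs6st1, chr1:36068300-36068429, plus strand: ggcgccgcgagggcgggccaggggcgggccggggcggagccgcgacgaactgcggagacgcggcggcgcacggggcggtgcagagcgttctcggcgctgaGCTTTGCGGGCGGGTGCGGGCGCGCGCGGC
Nip7, chr8:107056777-107056906, plus strand: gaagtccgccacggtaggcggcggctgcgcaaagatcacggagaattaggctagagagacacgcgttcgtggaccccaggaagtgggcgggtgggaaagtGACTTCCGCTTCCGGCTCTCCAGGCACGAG
Eif2b2, chr12:85219381-85219510, plus strand: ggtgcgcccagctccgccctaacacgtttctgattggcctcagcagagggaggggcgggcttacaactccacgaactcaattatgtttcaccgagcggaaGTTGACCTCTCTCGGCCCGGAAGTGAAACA
Gspt1, chr16:11254296-11254425, minus strand: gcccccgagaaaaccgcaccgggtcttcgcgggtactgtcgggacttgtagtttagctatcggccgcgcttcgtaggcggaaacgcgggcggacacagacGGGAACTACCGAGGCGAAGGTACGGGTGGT
The annotated first base was A in Naa80, Fancl and Atg14, C in Pcbp1, and G in Hs6st1, Nip7, Eif2b2 and Gspt1. Among the printed stretches from the start on, GGAC on the sense strand occurred in Naa80 alone, beginning 20 bases after the start base. The ETS motif core CCGGAAG stood in the capitals of Naa80 (1 base after the start base) and Eif2b2 (16 bases after it) on the sense strand, and of Nip7 on the other strand.

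The 303 members lay in 302 genes on 20 chromosomes. Of them, 299 were in protein-coding genes and 4 in long non-coding RNA genes, among which Neat1 and Meg3 have names that are not provisional. Drosha, the nuclease that starts microRNA processing, held 2 members, 1 at each end of the gene. The midpoint lay in 1 gene span for 272 members, in 2 for 30 and in 3 for 1. Member genes made up 0.872% of the 34614 genes used and 3.75% of the 8061 genes that held an m6A peak in either list.

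Nearly all members lay at transcription starts. The strand of the gene, which the rule did not use, was known for 239 members, and 233 of these (97.5%, exact 95% interval 94.6 to 99.1) lay at the start. Knockout-only peaks at gene ends, which overlapped no wild-type peak, lay at the start in 1266 of 1286 cases (98.4%, 97.6 to 99.05). Wild-type-only peaks at gene ends did so in 67 of 190 cases (35.3%, 28.5 to 42.5), so most of those lay at the far end. The odds of lying at the start were 71.3 times as high for members as for wild-type-only end peaks (95% interval 30.1 to 169, adjusted p = 1.1e-48, Fisher's exact test, two-sided, Benjamini-Hochberg over 7 class comparisons). Against knockout-only end peaks the odds ratio was 0.613 (0.244 to 1.54, adjusted p = 0.486, Fisher's exact test), and this interval includes both lower and higher odds. Peaks are not replicates, so these tests compare the lists and not the genotypes. The rule parted members from wild-type-only end peaks by overlap with the knockout list, whose unshared end peaks lay nearly all at the start. The odds ratio over wild-type-only end peaks thus largely follows from the rule, and nothing further is read from its p-value. The remaining 64 members had no strand in the promoter table.

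**Figure D1:**
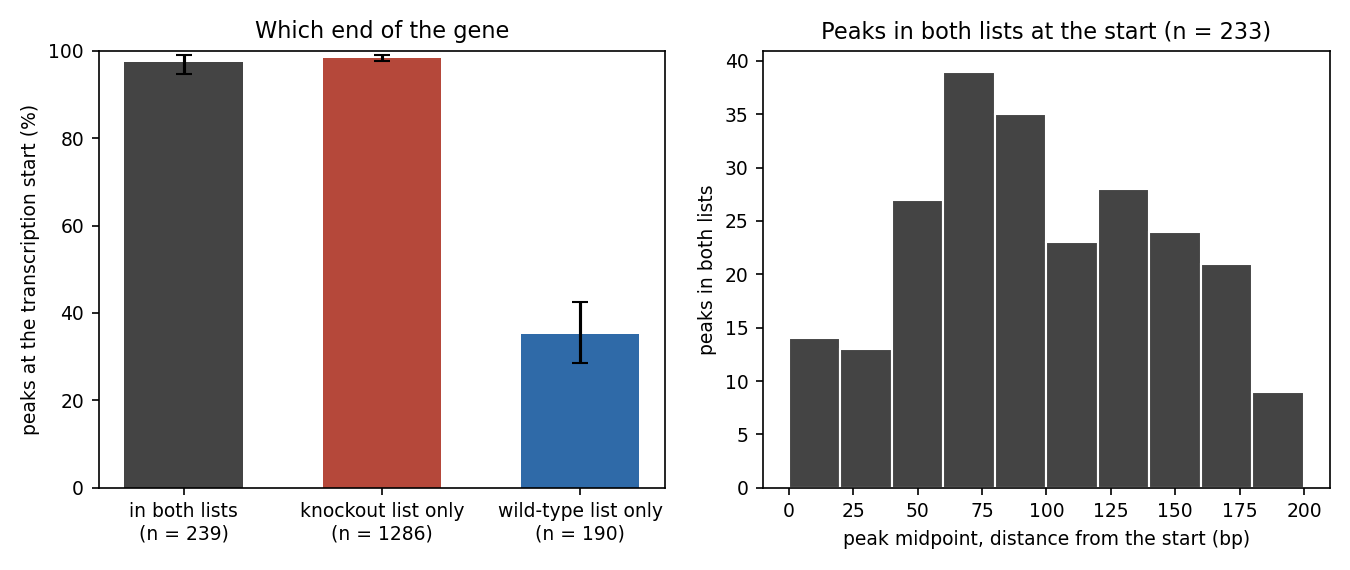
Left, percent of gene-end m6A peaks with known strand that lay at the transcription start, for peaks in both lists, in the knockout list alone and in the wild-type list alone (bars, share; lines, exact 95% interval). Right, number of the 233 shared start peaks by distance in bp of the wild-type midpoint from the annotated start; shares were 97.5%, 98.4% and 35.3%, and the right-hand counts crest between 60 and 100 bp.

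At the 233 member starts, the wild-type midpoint lay a median of 93 bp inside the gene (quartiles 60 and 133 bp). The upstream edge of the peak lay a median of 21 bp before the start, with quartiles from 48 bp before it to 9 bp after it. The downstream edge lay a median of 209 bp after the start (quartiles 151 and 257). The peak covered the annotated start at 160 of the 233 (68.7%). Knockout-only start peaks had a median midpoint 105 bp inside the gene, and 64.2% covered the start. At 67 starts, the wild-type-only peaks had a median midpoint of 119 bp and 59.7% covered the start. The same limit of 200 bp on the midpoint applied to each class and largely sets these values, so nothing is read from their likeness. Edges in both m6A lists are known only to the 50 bp grid on which all their peaks begin and end.

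The limit of 200 bp divided a continuous range of distances. Just inside it, Tle3 and Pias2 lay at 200 bp, N4bp2l2 at 197 bp, and Zfp36l2 and Saysd1 at 196 bp. Just outside were the shared peaks of Maoa (203 bp), Sumo3 and Ogg1 (204 bp each), Fam210a (207 bp) and Senp3 (208 bp).

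The 6 members at the far end of a gene were in Drosha (midpoint 65 bp from the end), Nop56 (87 bp), Dgka (120 bp), Plagl1 (143 bp), Ucp2 (153 bp) and 1 provisional long non-coding RNA gene. They were singled out after their positions were known. None lay within 5 kb of the start of another gene in the promoter table, which does not hold every gene. The nearest such start was that of Idh3b, 5225 bp from the Nop56 peak. The gene's own start lay 4859 bp away in Nop56 and 3623 bp away in the provisional gene. NOP56 is a core protein of the box C/D small nucleolar ribonucleoprotein, and Nop56 had a knockout peak of 500 bp against a wild-type peak of 250 bp. At the far end of Drosha the knockout peak was 400 bp wide and the wild-type peak 150 bp. At its start both were 200 bp wide with the same edges.

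The widest wild-type peak among the members was that of Fbxw7, which encodes the substrate-binding subunit of an SCF ubiquitin ligase. There the knockout peak was 250 bp wide and the wild-type peak 1100 bp (chr3:84814601-84815700), with 200 bp in common. The knockout peak lay 190 to 439 bp before the annotated start, while the wild-type peak ran from 389 bp before to 710 bp after it. In Naa80, which encodes the acetyltransferase that modifies the N-terminus of actin, the peaks were 350 bp in knockout and 750 bp in wild type. The knockout peak of Naa80 began 18 bp before the start and the wild-type peak 318 bp before it. Fancl, the ubiquitin ligase subunit of the Fanconi anaemia core complex, had 250 bp in knockout and 600 bp in wild type. Atg14, a subunit of the autophagy lipid kinase complex, had 250 bp in knockout and 550 bp in wild type. In Atg14 both peaks ended at the same position, 283 bp after the start, and the wild-type peak reached 266 bp before it. Pcbp1, a poly(C)-binding protein, had 350 bp in knockout and 550 bp in wild type. The fibroblast growth factor receptor gene Fgfr1 had 100 bp in knockout and 500 bp in wild type. Hirip3, whose product binds the histone chaperone HIRA, had 150 bp in knockout and 500 bp in wild type. Only 50 bp were in common there, and the knockout peak ended 29 bp before the annotated start. Hs6st1, a heparan sulfate sulfotransferase gene, had 250 bp in knockout and 450 bp in wild type, with the same upstream edge.

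The 10 widest knockout peaks were mostly the wider of their pair, except in 1 gene with a provisional name (550 bp in knockout, 850 bp in wild type). Ranking by knockout width favours this, as the ranking by wild-type width above favours a wider wild-type peak. Paics, an enzyme gene of purine synthesis, had a knockout peak of 1050 bp and a wild-type peak of 350 bp. Its knockout peak ran from 451 bp before to 598 bp after the start, and its wild-type peak from 101 bp before to 248 bp after it. Sdf2, whose product takes part in protein folding in the endoplasmic reticulum, had 700 bp in knockout and 350 bp in wild type. Kbtbd4, a substrate adaptor of a cullin ubiquitin ligase, had 650 bp in knockout and 300 bp in wild type. The growth arrest and DNA damage gene Gadd45a had 650 bp in knockout and 250 bp in wild type. Peaks of 550 bp in knockout stood beside wild-type peaks of 450 bp in the ribosome biogenesis gene Nip7, 400 bp in Ssna1, 350 bp in the replication fork repair gene Tonsl and 250 bp in Rmi1, a subunit of the BLM dissolvasome. Both Paics and Gadd45a lay in more than 1 gene span, as did Sdf2 and Rmi1. The same held for other genes named here, such as Naa80, Hirip3, Rrp15, Ctcf, Ccnt1 and Sox2. The lists carry no strand that would assign these peaks to 1 transcript.

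**Figure D2:**
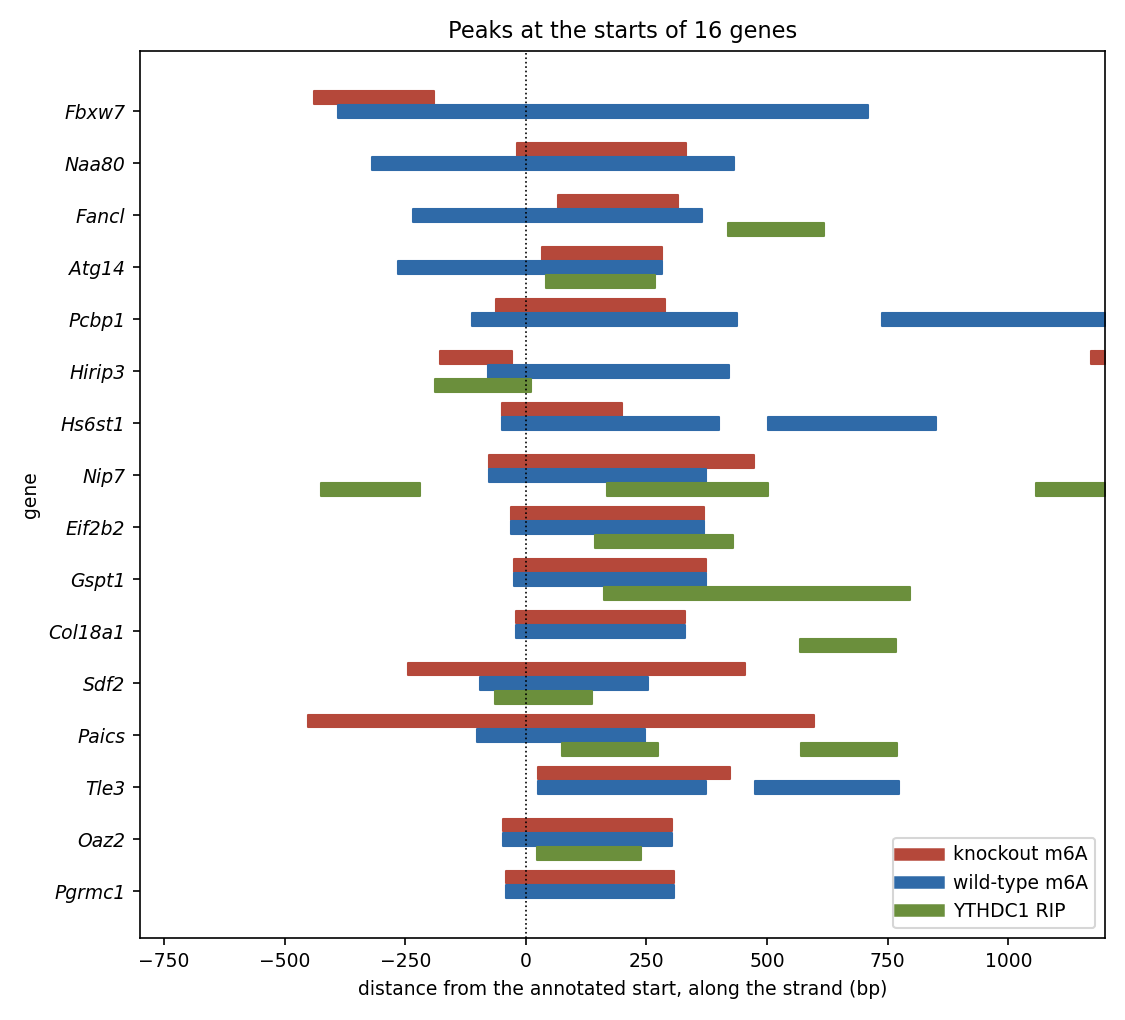
Peaks around the annotated start of the 16 members with the widest wild-type peaks among those at the start that the text names, with knockout m6A peaks above, wild-type m6A peaks in the middle and YTHDC1 RIP peaks below in each row (x axis, bp along the strand of the gene; bars, extent of each peak, cut at the edges of the panel). The wild-type bar is the longer one at Fbxw7, Naa80 and Fancl, the knockout bar at Sdf2 and Paics, and both coincide at Eif2b2, Gspt1, Col18a1, Oaz2 and Pgrmc1.

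Over the 303 pairs, the knockout peak had a median width of 250 bp (quartiles 250 and 350) and the wild-type peak one of 200 bp (150 and 300). The knockout peak was wider in 180 pairs, equally wide in 84 and narrower in 39. This order is the reverse of that of the whole lists, whose median width was 250 bp for knockout and 400 bp for wild type. Nothing is read from the reversal, because the rule limited the midpoint of the wild-type peak alone. Wild-type-only start peaks, chosen with the same limit, also had a median width of 250 bp. Of the 303 pairs, 80 (26.4%) had identical edges in both lists, and the median pair shared 75% of its union. Among the 1069 shared peaks inside genes, 104 (9.73%) had identical edges and the median pair shared 50% of its union. There the knockout peak was wider in 39.5% and narrower in 48.2%. Of the 239 members with strand, the midpoints of both peaks coincided in 86 and lay within 50 bp of each other in 196. Neither read depth nor enrichment is known, so a width is not an amount of m6A.

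**Figure D3:**
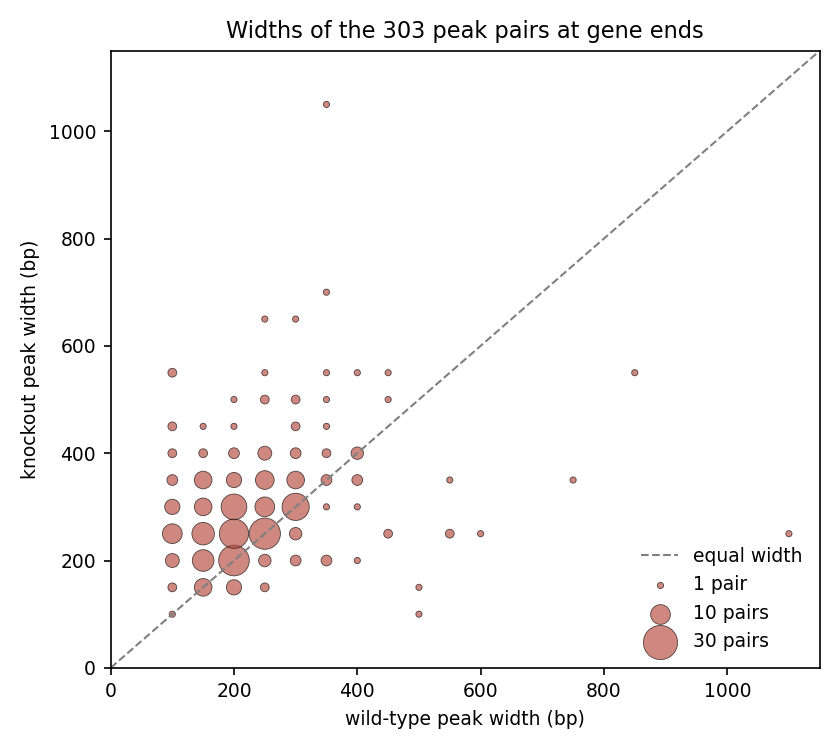
Width in bp of the knockout m6A peak (y axis) against that of the wild-type m6A peak (x axis) for the 303 shared gene-end peaks, with the area of a circle in proportion to the number of pairs at those widths and a dashed line at equal width. There are 180 pairs above the line, 84 on it and 39 below it, and the circle farthest to the right is Fbxw7 (250 bp in knockout, 1100 bp in wild type).

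The pairs with identical edges and the widest peaks included genes of protein synthesis. Eif2b2, a subunit of the exchange factor for the initiation factor eIF2, had a peak of 400 bp at the same place in both genotypes, from 30 bp before the start to 369 bp after it. Gspt1, the release factor eRF3a, had 1 of 400 bp as well, from 25 bp before to 374 bp after the start. Tsc22d4 had 400 bp in both lists. Col18a1, a basement membrane collagen gene, the antizyme gene Oaz2 and Pgrmc1 had 350 bp each. Relch, the antiproliferative gene Btg2, the ETS factor gene Elf3 and the ribosome biogenesis gene Rrp15 had 300 bp each.

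In most of their genes the members were not the only m6A peaks. A further wild-type peak lay in 199 of the 302 genes (65.9%), 369 peaks in all, and 165 genes held a further knockout peak. Of the 369 further wild-type peaks, 267 (72.4%) overlapped no knockout peak, and 157 member genes held at least 1 of these. Among all wild-type peaks in gene spans that share was 88.4%. In genes whose member lay at the start, 206 further wild-type peaks overlapped no knockout peak. They lay at a median of 87.4% of the way along the gene span (quartiles 64.9 and 95.6%), and 123 of the 206 (59.7%) lay in its last 20%. The start peak of these genes was in both lists by the rule, and the further peaks were chosen as wild-type-only. No share in the last 20% is given here for all wild-type-only peaks, so this placement is not shown to be particular to member genes. Among all wild-type-only peaks at gene ends with known strand, 67 of 190 (35.3%) lay at the start. In 53 member genes neither list held another m6A peak.

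The member genes covered many functions, and the gene lists below were chosen with earlier results of these data known. Each count is to be read against the 0.872% of all genes and the 3.75% of genes with an m6A peak. The ubiquitin, SUMO and proteasome list had a member in 7 of 48 genes found, or 17.5% of the 40 with any m6A peak, among them Fbxw7, Btrc, Cul4b, Ube2a, Ube2k and Psmd4. Btrc encodes another SCF substrate-binding subunit, Cul4b a cullin scaffold, Ube2a and Ube2k ubiquitin-conjugating enzymes, and Psmd4 a ubiquitin receptor of the proteasome. Psmd4 had 200 bp in both lists at the same place. Cul4b had 250 bp in knockout and 200 bp in wild type.

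The list of RNA decay and microRNA pathway genes had a member in 6 of 51 genes, or 14.0% of the 43 with a peak. Besides Drosha these included Btg2, Zfp36l1 and Zfp36l2, whose products recruit the deadenylation machinery, and the stress granule gene G3bp1. The peaks of Zfp36l1 were 300 bp in both lists with the same edges. Those of Zfp36l2 were 350 bp in knockout and 300 bp in wild type. Chaperones and stress response genes had members in 4 of 41 genes, or 12.5% of 32 with a peak. These were Bag3 (450 bp in knockout, 300 bp in wild type), Gadd45a, the phosphatase subunit gene Ppp1r15a (350 bp in knockout, 250 bp in wild type) and Dnaja2 (350 bp in knockout, 150 bp in wild type).

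RNA polymerase II, Mediator and elongation genes had members in 4 of 47 genes. Polr2a, the largest subunit of the polymerase, had 400 bp in knockout and 200 bp in wild type. Polr2e, a subunit common to the nuclear polymerases, had 300 bp in knockout and 150 bp in wild type. The elongation factor gene Ell2 had 400 bp in knockout and 250 bp in wild type, and Ccnt1, the cyclin of P-TEFb, had 150 bp in both. Chromatin regulators had members in 5 of 70 genes, which were the deacetylase gene Hdac1, Ctcf, the SWI/SNF subunit gene Smarcb1, the Polycomb gene Cbx7 and the remodeller gene Atrx. Hdac1 had 250 bp in both lists with the same edges, while Ctcf had 350 bp in knockout and 200 bp in wild type. Splicing factors and hnRNP genes had members in 4 of 63 genes, Pcbp1, Syncrip (500 bp in knockout, 300 bp in wild type), Hnrnpm (300 bp in knockout, 250 bp in wild type) and Rbm25 (300 bp in knockout, 100 bp in wild type). Translation factors had members in 3 of 47 genes, Eif4g2 (400 bp in knockout, 350 bp in wild type), Eif3b (250 bp in knockout, 150 bp in wild type) and Eef1g (250 bp in knockout, 100 bp in wild type).

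Pluripotency factors had members in 2 of 33 genes, or 7.14% of the 28 with a peak. Sox2, a core pluripotency factor, had a knockout peak of 450 bp and a wild-type peak of 150 bp at its start, with the wild-type midpoint 131 bp inside the gene. The X-linked nuclear receptor gene Nr0b1 had 200 bp in knockout and 300 bp in wild type. Of 24 m6A writers, erasers and readers, Igf2bp1, which encodes a cytoplasmic m6A-binding protein, alone had a member, of 400 bp in knockout and 200 bp in wild type. Ythdc1 and Fto held shared peaks outside the limit of 200 bp, centred 296 bp and 259 bp into the gene span. These peaks were centred 10 bp and 101 bp from another annotated start of the same gene. Cell cycle genes had 2 of 50, the replication clamp gene Pcna (400 bp in knockout, 250 bp in wild type) and the phosphatase gene Cdc25a (200 bp in knockout, 150 bp in wild type). Immediate early and signalling genes had 2 of 28, the MAP kinase phosphatase gene Dusp1 (200 bp in knockout, 250 bp in wild type) and Ier3 (250 bp in knockout, 150 bp in wild type). The long non-coding RNA list had Neat1, the scaffold of paraspeckles (400 bp in knockout, 250 bp in wild type), and the imprinted Meg3 (200 bp in both), or 2 of 33.

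The remaining lists held between 0 and 6 members. Cytosolic ribosomal proteins had 1 of 85 genes, Rpl41, or 6.67% of the 15 with a peak. The Zfp list had 6 of 403 genes, or 2.27% of the 264 with a peak, and 2 of these 6 were the RNA-binding proteins Zfp36l1 and Zfp36l2 and not DNA-binding zinc finger proteins. Replication-dependent histones had 0 of 57 genes, or 0 of the 7 with a peak, and nothing is read from so few. All 7 held a knockout-only peak at a gene end. Other lists held such peaks in a smaller part of their genes with a peak, from 0 of 4 (fibroblast markers) to 16 of 39 (cell cycle genes). In a short gene any peak lies near an end, and gene length was not taken into account. Whether such peaks are particular to histones was not tested. Fibroblast markers had 1 of 16, the intermediate filament gene Vim, or 25% of the 4 with a peak, and the markers of neuroectoderm (14 genes) and of mesoderm and endoderm (16 genes) had 0. The members of the X chromosome numbered 14 of 303 (4.62%, 2.55 to 7.63), beside 4.26% of all knockout peaks and 2.34% of all wild-type peaks.

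The promoter table held the annotated start of the gene span for 179 member genes at the start, and the bases there are a description of annotated, not measured, starts. The base at the start was G in 88 of the 179, A in 57 (31.8%, 25.1 to 39.2), C in 19 and T in 15. A stood there in 302 of 924 genes with a knockout-only start peak (32.7%, 29.7 to 35.8) and in 17 of 52 with a wild-type-only start peak (32.7%, 20.3 to 47.1). The odds ratio of members was 0.962 over knockout-only starts (0.683 to 1.36) and 0.962 over wild-type-only starts (0.498 to 1.86), with an adjusted p of 1 in both (Fisher's exact test). These intervals leave room for a difference in either direction. Among genes with m6A peaks but none at the start, 614 of 2329 (26.4%, 24.6 to 28.2) had A there. Over all genes whose start is in the table the share was 36.7%, and over the protein-coding ones 42.4%. When an A within 2 bases of the annotated start was counted, the share of member genes was 69.8%. Counting more positions raises this share in any set of genes. The odds ratio of members was then 1.12 over knockout-only starts (adjusted p = 0.542) and 1.84 over wild-type-only starts (adjusted p = 0.117, Fisher's exact test in both).

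The start regions of the member genes were rich in G and C. Over the 300 bases from 250 before to 50 after the start, the median GC content was 61.3% for members, 60.0% for knockout-only starts, 61.0% for genes with m6A peaks elsewhere only, 54.0% for protein-coding genes and 50.7% for all genes. The median number of CG dinucleotides was 22 for members, 20 for knockout-only starts, 21 for genes with m6A peaks elsewhere only, 9 for protein-coding genes and 5 for all genes. GGAC, the core of the METTL3 context, occurred on the sense strand of the 50 bases from the start on in 27.4% of member genes (21.0 to 34.5). It occurred there in 20.9% of knockout-only start genes (18.3 to 23.7), 19.1% of genes with m6A peaks elsewhere only (17.5 to 20.8), 19.2% of protein-coding genes and 18.2% of all genes. The longer GGACT was found in 8.94% of member genes (5.196 to 14.1), 6.17% of knockout-only start genes, 4.81% of genes with m6A peaks elsewhere only, 6.18% of protein-coding genes and 5.94% of all genes. Most member genes held neither in this window, which covers only part of a peak.

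Promoter motifs were counted at any position of the whole 300 bases. The GC box GGGCGG, on either strand, occurred in 72.1% of member genes (64.9 to 78.5), 68.0% of knockout-only start genes, 64.3% of genes with m6A peaks elsewhere only, 40.5% of protein-coding genes and 29.5% of all genes. The TATA box sequence TATAAA on the sense strand occurred in 10.1% of member genes (6.07 to 15.4) and 5.09% of knockout-only start genes (3.76 to 6.71). Its share was 3.56% of genes with m6A peaks elsewhere only (2.85 to 4.40), 11.7% of protein-coding genes and 10.3% of all genes. Its distance from the start was not considered, so these are not shares of TATA box promoters. CCGGAAG on either strand, which is bound by ETS factors, occurred in 16.2% of member genes (11.1 to 22.4) and 25.6% of knockout-only start genes (22.9 to 28.6). Its share was 17.6% of genes with m6A peaks elsewhere only, 10.3% of protein-coding genes and 7.35% of all genes. CCAAT on either strand occurred in 44.7% of member genes, 47.4% of knockout-only start genes, 40.4% of genes with m6A peaks elsewhere only and 38.2% of all genes. The NRF1 motif GCATGCGC on either strand occurred in 4.47% of member genes, 8.12% of knockout-only start genes, 4.94% of genes with m6A peaks elsewhere only and 2.27% of all genes. ATGGCGGC, bound by YY1, occurred in 5.59% of member genes, 8.44% of knockout-only start genes, 5.15% of genes with m6A peaks elsewhere only and 1.97% of all genes. Matches overlapping another motif were counted. These shares were not tested, and a match is not a binding site.

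Another gene on the opposite strand started within 500 bp of 51 of the 233 member starts (21.9%, 16.8 to 27.8). This was so for 21.3% of knockout-only starts, 25 of 67 wild-type-only starts (37.3%) and 12.4% of all genes whose start is in the promoter table. The lists carry no strand, so a peak between such genes cannot be given to 1 of them. Neighbours missing from the promoter table could not be counted, so these shares may be too low.

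YTHDC1 RIP peaks, which the rule did not use, overlapped 83 of the 303 members (27.4%, 22.4 to 32.8). They overlapped 193 of 1069 shared peaks inside genes (18.1%, 15.8 to 20.5) and 13.3% of all wild-type peaks in gene spans. The odds were 1.71 times as high for members as for shared inner peaks (1.27 to 2.30, adjusted p = 0.0017, Fisher's exact test, two-sided). Knockout-only end peaks overlapped a RIP peak in 386 of 1561 cases (24.7%, 22.6 to 26.9), and the odds ratio of members over them was 1.15 (0.870 to 1.52, adjusted p = 0.486, Fisher's exact test). Wild-type-only end peaks did so in 36 of 235 cases (15.3%, 11.0 to 20.6), for an odds ratio of 2.09 (1.35 to 3.22, adjusted p = 0.0019, Fisher's exact test). That difference did not hold at starts alone. There, in a split chosen after seeing the data, a RIP peak overlapped 65 of 233 members (27.9%, 22.2 to 34.1). The same held for 20 of 67 wild-type-only peaks (29.9%, 19.3 to 42.3), an odds ratio of 0.909 (adjusted p = 1, Fisher's exact test). The RIP cells differed from the m6A cells in the Halo tag and in the RNA fraction, and no Halo control list was used here.

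**Figure D4:**
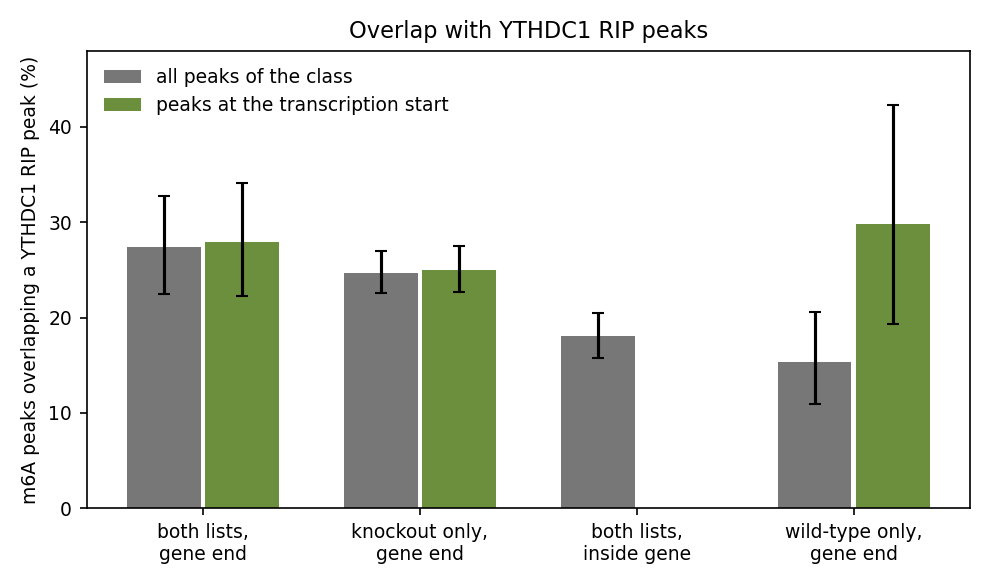
Percent of m6A peaks that overlapped a YTHDC1 RIP peak by at least 1 bp, for gene-end peaks in both lists, knockout-only gene-end peaks, shared peaks inside genes and wild-type-only gene-end peaks (grey bars, all peaks of the class; green bars, those at the transcription start, not defined inside genes; lines, exact 95% intervals). The grey bars are at 27.4%, 24.7%, 18.1% and 15.3%, and the green ones at 27.9%, 25.04% and 29.9%.

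The widest RIP peak at each of the 83 members that overlapped one had a median of 226 bp (quartiles 200 and 263.5). The median over all RIP peaks was 203 bp. Taking the widest peak per member can raise the first value, so nothing is read from the difference. Of the members, 7 lay wholly inside a RIP peak. The widest, of 634 bp, was at Gspt1 and ran from 163 to 796 bp after the start, so that it covered the later part of the m6A peak. At Eif2b2 the RIP peak began 143 bp after the start and at Nip7 168 bp after it. At Atg14 it lay within the m6A peaks, from 42 to 267 bp after the start. Naa80 held no RIP peak anywhere in the gene, and the RIP peak of Fancl nearest the start began 418 bp after it, beyond both m6A peaks. A RIP peak lay somewhere in 242 of the 302 member genes (80.1%), and in 4848 of the 6570 genes that held wild-type m6A (73.8%).

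The cover of the member starts by peaks was read every 50 bp along the gene. The rule held the wild-type midpoints within 200 bp of the start, so the place of highest m6A cover follows largely from it. RIP peaks had no such limit, and nothing is read from the distance between the m6A and RIP crests. Knockout m6A peaks covered 77.3% of the 233 starts at the start base and 97.4% at 100 bp after it. Wild-type m6A peaks covered 68.7% at the start base and 90.1% at 100 bp. RIP peaks covered 6.01% at the start base, 21.0% at 100 bp and 24.5% at 150 bp, the highest value, and 6.87% at 500 bp. At knockout-only starts the RIP cover was also highest at 150 bp, with 22.4%.

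**Figure D5:**
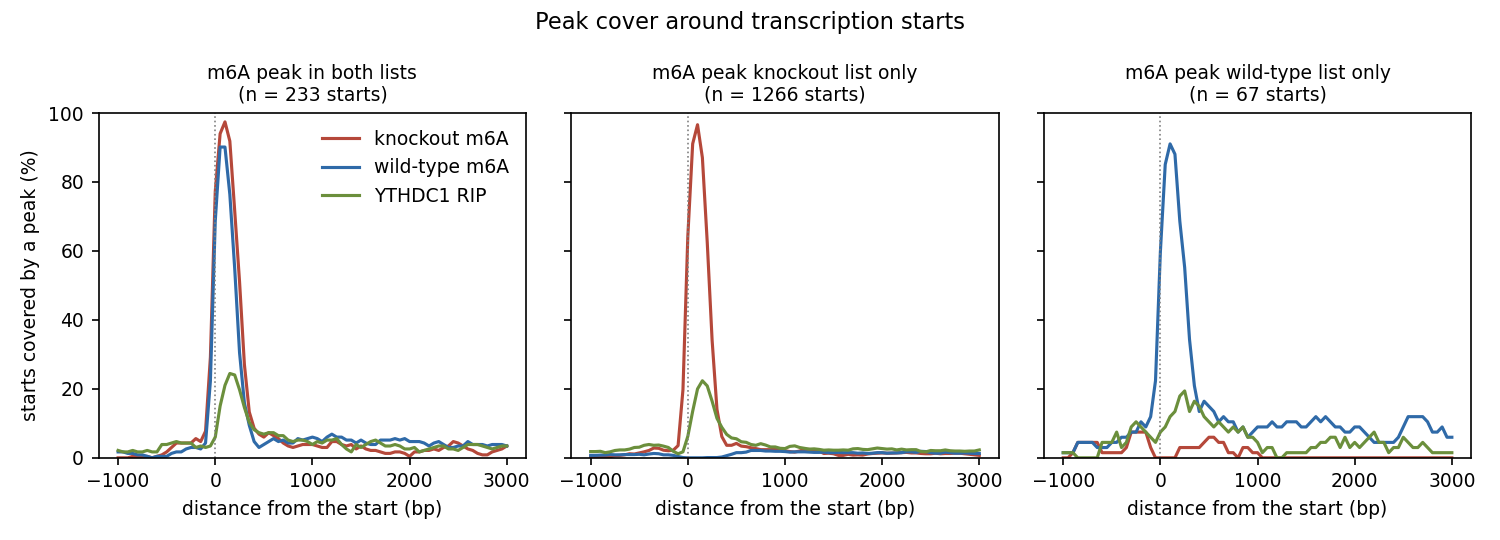
Percent of transcription starts covered by a knockout m6A, wild-type m6A or YTHDC1 RIP peak at each distance in bp from the annotated start (x axis, positive inside the gene, read every 50 bp), at starts with an m6A peak in both lists, in the knockout list alone and in the wild-type list alone. At the 233 shared starts both m6A curves crest by 100 bp (97.4% in knockout, 90.1% in wild type) and the RIP curve at 150 bp (24.5%). The place of the m6A crests follows largely from the limit of 200 bp on the midpoint. An m6A curve near 0 at the start in the other panels follows from how those classes were chosen.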

How the data were processed

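The m6A samples (polyadenylated RNA) and the YTHDC1 RIP samples (total RNA) were grouped by title. The authors deposited 3 peak lists whose other unit is position in bp on mm10, per the labels, with no score. Per the submitters' processing notes MACS2 2.1.2, HISAT2 2.2.0, STAR 2.7, SAMtools 1.9 and Trim Galore 0.6.4 were among the tools. Their roles, the peak threshold, the m6A antibody and any pooling of replicates were not given in the sources used here.

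Gene spans came from the RefSeq table of GRCm38.p6 and the strand from the RefSeq promoter table, without mitochondrial genes. Where spans overlapped, protein-coding genes were preferred and then the shortest. With several overlapping knockout peaks, the widest was paired. Classes were compared by Fisher's exact test (SciPy 1.17.1, Python 3.11.15), two-sided, with Benjamini-Hochberg adjustment over 7 comparisons, a threshold of 0.05 and Clopper-Pearson 95% intervals of shares. The script was tested on simulated lists. Members, gene lists and tests were chosen with earlier results of these data known. The genes named were the 10 with the widest wild-type peaks, the widest knockout peaks and the largest shared fraction, 5 on each side of the 200 bp limit, up to 4 from every gene list in order of wild-type width (with further members of the ubiquitin, RNA decay and chromatin lists given by name), named long non-coding RNAs, and the far-end members. Some genes that met this rule are not reported here. No coordinates on chromosome 18 are printed. Exons and stop codons were not used here. Alternatives were other distances, overlaps, gene classes, widths and definitions of the start base.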

Additional observations from a re-analysis of the deposited data

How the results depend on the processing

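Of 49 alternative values, 34 stayed on the same side of the threshold or within the counting interval. The number of members was 164 with ends within 100 bp, 461 with ends within 500 bp and 5 among peaks wider than the median of their list. With ends within 500 bp the share at the start was 91.2%, and the odds ratio over knockout-only end peaks passed the threshold at 0.383 (adjusted p = 0.00011, Fisher's exact test). When a RIP peak had to cover at least 50% of the m6A peak, 19.1% of members qualified and the odds ratio over knockout-only end peaks turned to 0.918 (adjusted p = 0.896, Fisher's exact test). At starts alone, an alternative added after seeing the data, the RIP odds ratio over wild-type-only end peaks turned to 0.909. With A within 2 bases of the start, which counts more positions, the share of member genes was 69.8%. The odds ratio for A, which passed the threshold under none of these settings, turned above 1 over knockout-only starts with ends within 100 bp (1.17), with midpoints in 1 span (1.04) and with A within 2 bases (1.12), and over wild-type-only starts under the same settings (1.14, 1.12 and 1.84). The share at the start differed from that of wild-type-only end peaks under all 5 alternatives run, with odds ratios of 47.4 to 70.8. All of these settings used overlap with the knockout list, which largely sets this difference. The RIP share differed from that of shared inner peaks under all 4 alternatives run, with odds ratios of 1.72 to 2.29. The cause of these shifts was not tested. No paired analysis was possible because the lists carry no replicates, so no replicate could be left out either. The depth behind the lists is unknown, and a peak missing from a list is not shown to be absent from the RNA.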

Other observations

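Start peaks shared by both genotypes were not all at the outermost start of a gene. Among shared peaks inside genes with known strand, 94 of 877 (10.7%, exact 95% interval 8.75 to 13.0) had their midpoint within 200 bp of another annotated start of the same gene. The share was 13.6% (397 of 2909, 12.4 to 14.9) for knockout-only inner peaks and 0.493% (41 of 8313, 0.354 to 0.668) for wild-type-only inner peaks. These shares were computed after the data were seen and were not tested. In most of the 94 shared peaks the knockout peak was the wider one, as in Ubtf (850 bp in knockout, 200 bp in wild type). The genes named next were among those with the widest wild-type peaks, a choice that favours a wider wild-type peak. Rbmxl1, a gene of an RNA-binding protein, had a knockout peak of 250 bp and a wild-type peak of 900 bp centred 117 bp from an inner start. Arih1, a ubiquitin ligase gene, had 250 bp in knockout and 800 bp in wild type, centred 73 bp from an inner start and 1885 bp into the gene span. The transcriptional repressor gene Tgif1 had 300 bp in knockout and 650 bp in wild type. The phosphatase gene Ptp4a2 had 400 bp in knockout and 450 bp in wild type, centred 3 bp from an inner start and 9311 bp into the span.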
